A study of Rattus norvegicus with 6 samples.

Results

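A set of 10 miRNAs known from neurons and from neuroendocrine cells was followed in the exosomes of rat bone marrow mesenchymal stem cells (MSCs): rno-miR-9a-5p, rno-miR-9a-3p, rno-miR-124-3p, rno-miR-128-3p, rno-miR-128-2-5p, rno-miR-138-5p, rno-miR-138-2-3p, rno-miR-7a-5p, rno-miR-375-3p and rno-miR-375-5p, written without the rat prefix from here on. They were chosen by name, and all 10 were among the 749 miRNAs of the deposited table. The exosomes came from Sprague-Dawley rat MSCs, a primary culture and not a line. In the MSCsTXL-exo group (3 libraries) the MSCs had been pretreated for 24 h with 400 μg/mL of Tongxinluo (TXL), a Chinese compound medicine. The MSCs-exo group (3 libraries) came from MSCs without TXL, and the comparison asks how TXL pretreatment of the cells relates to the miRNA content of what they release. Libraries carry the numbers 10, 12 and 13 in both groups and are named here by group and number. The measure was the number of unique molecular identifiers (UMIs, tags that mark single cDNA molecules) of each mature miRNA, given as CPM (UMIs scaled to a common library total) with TMM factors, which adjust library totals for differences in composition. No source used here says if a group's libraries were separate cultures or animals, so p-values measure the spread between these libraries, which may be technical.

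miRNAs are short RNAs cut from a hairpin precursor, whose left and right sides give the 5p and 3p arms. Usually one arm, the guide, is loaded into Argonaute and retained, and the other is largely degraded. The guide pairs with messenger RNAs mainly through its seed, bases 2 to 8, and represses them. miR-124 is the classical miRNA of differentiated neurons, miR-9 acts in neural progenitors and neurogenesis, miR-128 is enriched in brain, and miR-138 limits dendritic spine size in rat neurons. miR-7 and miR-375 are abundant in endocrine cells of the pancreatic islet and are known as regulators of hormone secretion. None of the 10 is a marker of mesenchymal cells.

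The mature sequences are shown because counts of a mature miRNA rest on matching so few bases, and because the seed decides which miRNAs could share targets. RefSeq (GRCr8) gave a mature sequence for 9 of the 10 members, printed 5′ to 3′ with the seed in capitals.
miR-9a-5p: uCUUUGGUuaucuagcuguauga
miR-9a-3p: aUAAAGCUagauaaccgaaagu
miR-128-3p: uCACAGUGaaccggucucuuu
miR-128-2-5p: gGGGGCCGaugcacuguaaga
miR-138-5p: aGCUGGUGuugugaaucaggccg
miR-138-2-3p: gCUAUUUCacgacaccagggu
miR-7a-5p: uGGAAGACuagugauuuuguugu
miR-375-3p: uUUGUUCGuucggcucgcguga
miR-375-5p: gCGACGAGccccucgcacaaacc
No pair among these members had the same seed. Among the 682 miRNAs of the table with a RefSeq sequence, miR-7a-5p shared its seed with miR-7b alone and miR-128-2-5p with miR-128-1-5p alone. The near relatives are shown because reads could be assigned to either.
miR-7b: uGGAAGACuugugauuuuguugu
miR-128-1-5p: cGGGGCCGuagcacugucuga
miR-7a-5p and miR-7b differ at a single base (A10U, counted from the 5′ end of miR-7a-5p), so their split depends on the mismatches allowed in mapping. miR-128-2-5p and miR-128-1-5p differ at 5 bases (G1C, A9U, U10A, A18C and A19U, counted from the 5′ end of miR-128-2-5p).

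By the positions in the deposited table, whose genome build is not given in the sources used here, 6 of these miRNAs have several loci. miR-9a-5p, miR-9a-3p and miR-124-3p have 3 loci each, and miR-128-3p, miR-138-5p and miR-7a-5p have 2 each. miR-128-2-5p, miR-138-2-3p and both arms of miR-375 come from 1 locus each. In the RefSeq annotation, Mir128-2 lies within Arpp21 and Mir128-1 within R3hdm1, both genes expressed in brain, Mir138-2 within Slc12a3, and Mir7-1 within Hnrnpk, which encodes an RNA-binding protein of most cell types.

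Together the members were a small part of the exosomal miRNA. A level in exosomes does not tell how many vesicles carried a miRNA from how much each carried. They made up 0.230% to 0.320% of all UMIs of a library. Their summed level was 2354, 2526 and 2670 CPM in MSCsTXL-exo libraries 10, 12 and 13, against 2610, 3103 and 2751 CPM in MSCs-exo libraries 10, 12 and 13. The groups overlapped, with means of 2517 ± 159 CPM in MSCsTXL-exo and 2821 ± 254 CPM in MSCs-exo (SD, n = 3 each). Within each library number the sum was lower in MSCsTXL-exo, except that upper quartile factors in place of TMM turned number 13 round (3073 CPM in MSCsTXL-exo and 2735 CPM in MSCs-exo). miR-128-3p and miR-7a-5p held 79.8% to 96.5% of this sum, and every one of the other 8 stayed between 0 and 240.2 CPM. By mean CPM, miR-128-3p ranked 52 and miR-7a-5p ranked 72 of 749 miRNAs, on the scale of UMIs, which keeps any difference between miRNAs in adapter ligation.

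The libraries held 382665, 794393 and 1792805 UMIs in MSCsTXL-exo and 453812, 690263 and 1000585 UMIs in MSCs-exo, so that 3 UMIs, the limit that a count of 0 allows, equalled 1.94 to 7.48 CPM, for counting error only. A list of 10 miRNAs typical of mesenchymal cells summed to 315015 to 402468 CPM per library, and a list of 6 neuronal miRNAs to 79.9 to 312 CPM. The neuroendocrine list, the 2 members miR-7a-5p and miR-375-3p, summed to 476 to 1409 CPM and was led by miR-7a-5p. None of the 10 mesenchymal miRNAs was at 0, from miR-125b-5p, the highest, to miR-214-3p, the lowest at 644 CPM. Epithelial markers (7 miRNAs, from miR-203a-3p to miR-200a-3p) summed to 50.5 to 99.7 CPM and the liver and serum miRNA miR-122-5p lay at 106 to 251 CPM. Single libraries stood apart: of the 392 miRNAs tested, 17 were over 2-fold higher in MSCsTXL-exo library 12 than in any other library and 28 in MSCs-exo library 10.

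**Figure D1:**
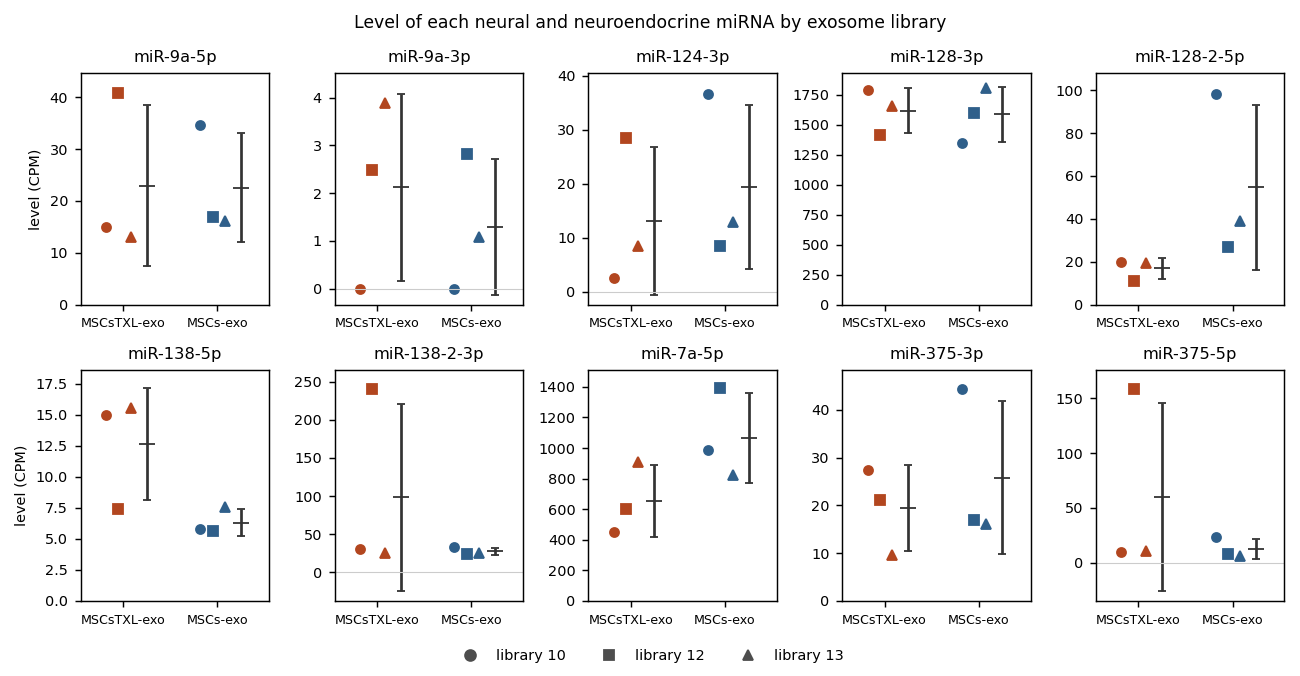
Level in CPM of each of the 10 miRNAs in the 3 MSCsTXL-exo libraries (left of each panel) and the 3 MSCs-exo libraries (right). Marker shapes give the library number, and the bar beside each group is the mean ± SD. miR-128-2-5p is the one panel in which all MSCsTXL-exo libraries (at most 19.9 CPM) lie below all MSCs-exo libraries (at least 26.7 CPM), and in the panels of miR-138-2-3p and miR-375-5p a single library, MSCsTXL-exo 12, lies far above the others.

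The members with enough UMIs to be tested were 6: miR-9a-5p, miR-128-3p, miR-128-2-5p, miR-138-2-3p, miR-7a-5p and miR-375-3p. miR-9a-3p, miR-124-3p, miR-138-5p and miR-375-5p were below the filter on low counts. A miRNA was called changed where it passed both thresholds of the study's methods, more than 2-fold and unadjusted p below 0.05, in edgeR's quasi-likelihood test over all 392 tested miRNAs. These thresholds called 14 of 392 miRNAs (3.57%), 7 of them lower in MSCsTXL-exo (1.79%). Among the members, 1 of 6 was called, miR-128-2-5p, which was lower in MSCsTXL-exo. With the Benjamini-Hochberg adjusted p under 0.05 as the threshold, 0 of 392 were called (0%) and therefore 0 members by edgeR. At an unadjusted p under 0.05 the counts were 14 miRNAs and 1 member, and DESeq2 and limma-voom also called 0 at the adjusted threshold. Log2 fold changes were positive for 3 of the tested members and negative for 3, with a median of -0.21, against 0.03 over all tested miRNAs. When the library number was used as a replicate block, the calls over all miRNAs were 29 (7.4%), of which 23 were lower (5.87%), and 1 passed the adjusted threshold (0.255%), while the members' count stayed at 1 of 6, again miR-128-2-5p.

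**Figure D2:**
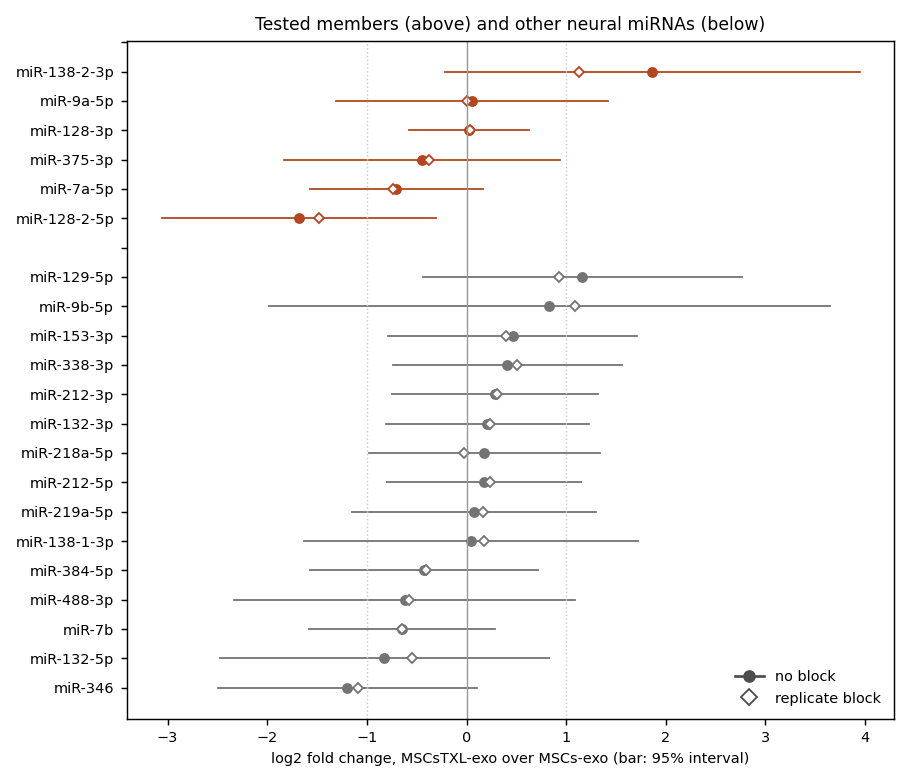
Log2 fold change of MSCsTXL-exo over MSCs-exo for the 6 tested members (above) and the 15 tested miRNAs of a list of other neural miRNAs (below). Filled circles and bars are the fit without a block and its 95% interval, open diamonds the fit blocked on library number, and dotted lines a fold change of 2 in either direction. Of these 21 intervals only that of miR-128-2-5p (-3.06 to -0.30) leaves out 0.

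miR-128 is made from 2 hairpins that give the same 3p arm, the guide, which is known to repress genes of neuronal excitability. miR-128-3p was the most abundant member, at 1785, 1413 and 1653 CPM in MSCsTXL-exo libraries 10, 12 and 13, against 1348, 1601 and 1805 CPM in MSCs-exo libraries 10, 12 and 13. The groups overlapped fully, and no library stood apart. It averaged 1617 ± 189 CPM in MSCsTXL-exo and 1585 ± 229 CPM in MSCs-exo (SD, n = 3 each, exact two-sided permutation p = 0.8, where the smallest p that 3 against 3 allows is 0.1). The log2 fold change was 0.03 (SE 0.26), with a 95% interval of -0.57 to 0.63, the narrowest of the tested members, so that a change of miR-128-3p by more than 2-fold in either direction lay outside the interval.

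The passenger arm of the second hairpin was lower in MSCsTXL-exo, with a 95% interval, given below, that overlapped that of miR-128-3p. miR-128-2-5p was at 19.9, 11.1 and 19.4 CPM (8, 9 and 30 UMIs) in MSCsTXL-exo libraries 10, 12 and 13, against 98.4, 26.7 and 38.9 CPM (51, 19 and 36 UMIs) in MSCs-exo libraries 10, 12 and 13. Every MSCsTXL-exo library was below every MSCs-exo library, and MSCs-exo library 10 was the highest by far. Groups that did not overlap, in either direction, were found for 29 of the 392 tested miRNAs (7.4%) and for 1 of the 6 tested members. The means were 16.8 ± 4.94 CPM in MSCsTXL-exo and 54.7 ± 38.3 CPM in MSCs-exo (SD, n = 3 each). The log2 fold change was -1.68 (SE 0.59, 95% interval -3.06 to -0.30), with an unadjusted p = 0.0230 and an adjusted p = 0.972 by edgeR's quasi-likelihood test, and an exact two-sided permutation p = 0.1 on the CPM, the smallest possible. Within library numbers, MSCsTXL-exo over MSCs-exo gave 0.203 for number 10, 0.417 for number 12 and 0.499 for number 13, so the direction was the same in all 3.

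The call of miR-128-2-5p rested on few libraries. It was lost, with the unadjusted p above 0.05, without MSCsTXL-exo library 10 (log2 fold change -1.79), without MSCsTXL-exo library 12 (-1.46) and without MSCs-exo library 10 (-1.01), and it was kept without any of the other 3 libraries. miR-128-2-5p did not pass a stricter filter of at least 10 counts in every library. In the 11 other settings that gave a value it was called each time, at log2 fold changes of -1.84 to -1.45, and the adjusted p over the 17 alternatives was 0.0747 to 0.998. MSCs-exo library 10, in which it was highest, was also the highest library for 28.1% of the tested miRNAs, and the part of that library in the difference was measured by leaving it out, as above.

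Among the hairpins compared here, Mir128-2 alone had arm shares that did not overlap between the groups. It is shown with both arms in capitals (RefSeq GRCr8, chr8:120963795-120963878, minus strand).
Mir128-2: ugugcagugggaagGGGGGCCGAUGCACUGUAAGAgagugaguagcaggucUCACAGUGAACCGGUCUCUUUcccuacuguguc
The 5p arm, first in the hairpin, made up 1.10%, 0.783% and 1.16% of the UMIs of both arms in MSCsTXL-exo libraries 10, 12 and 13, against 6.80%, 1.64% and 2.11% in MSCs-exo libraries 10, 12 and 13. The shares did not overlap, with 1.02 ± 0.204% in MSCsTXL-exo and 3.52 ± 2.85% in MSCs-exo (SD, n = 3 each, exact two-sided permutation p = 0.1, the smallest possible). Clopper-Pearson 95% intervals, which cover counting error only, were 0.358% to 1.48% for MSCsTXL-exo library 12 and 0.991% to 2.55% for MSCs-exo library 12, which overlap, while that of MSCs-exo library 10 was 5.10% to 8.84%, above all others. The 3p arm held nearly all UMIs, so this share mostly restates the counts of miR-128-2-5p given above and is not a separate result. Arm shares were not worked out for other hairpins of the deposited table, so there is no background to set it against. Since miR-128-3p also comes from Mir128-1, this share has a mixed source. The matching passenger arm of Mir128-1, miR-128-1-5p, had 1 to 5 UMIs per library, which is too few for a comparison.

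**Figure D3:**
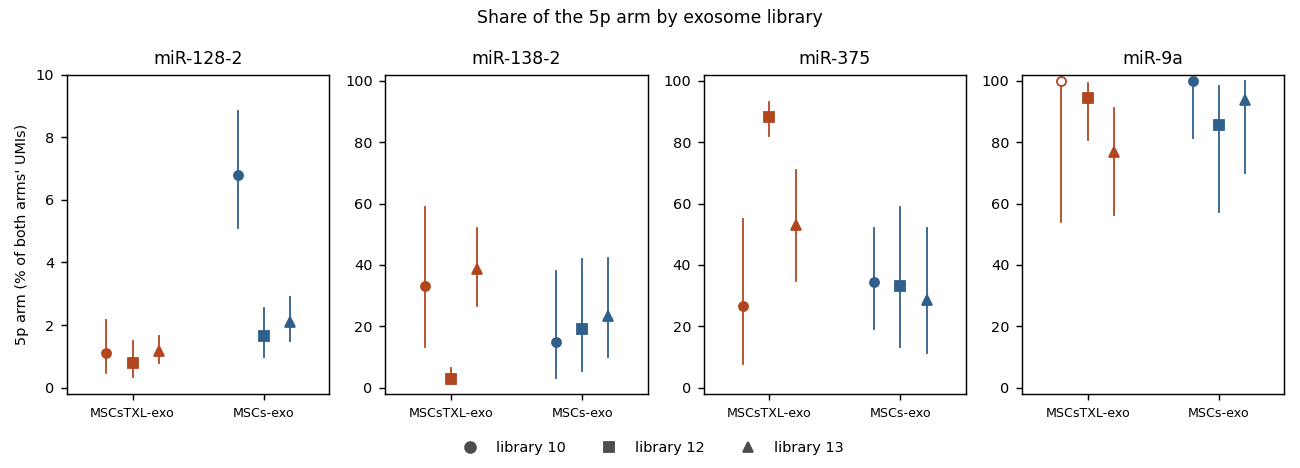
Share of the 5p arm in the UMIs of both arms, in percent, for 4 hairpins, with MSCsTXL-exo libraries left and MSCs-exo libraries right in each panel. Bars are Clopper-Pearson 95% intervals, marker shapes give the library number, the open circle is a library with under 10 UMIs over both arms, and the axis of miR-128-2 ends at 10%. MSCsTXL-exo library 12 has the lowest share for miR-138-2 (3.0%) and the highest for miR-375 (88.3%).

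miR-138-5p is the arm known to act at the synapse, where in rat neurons it represses the depalmitoylating enzyme APT1. It was scarce, at 14.96, 7.43 and 15.5 CPM (6, 6 and 24 UMIs) in MSCsTXL-exo libraries 10, 12 and 13, against 5.79, 5.62 and 7.56 CPM (3, 4 and 7 UMIs) in MSCs-exo libraries 10, 12 and 13. MSCsTXL-exo library 12 lay just below MSCs-exo library 13, so the groups overlapped, while within each library number the MSCsTXL-exo library was the higher. The means were 12.6 ± 4.52 CPM in MSCsTXL-exo and 6.32 ± 1.07 CPM in MSCs-exo (SD, n = 3 each, exact two-sided permutation p = 0.2). Its log2 fold change in the setting with no filter was 0.95, which was not called.

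miR-138-2-3p, the opposite arm of the Mir138-2 hairpin, was at 29.9, 240.2 and 24.6 CPM (12, 194 and 38 UMIs) in MSCsTXL-exo libraries 10, 12 and 13, against 32.8, 23.9 and 24.8 CPM (17, 17 and 23 UMIs) in MSCs-exo libraries 10, 12 and 13. A single library, MSCsTXL-exo 12, was 7.32 times the next highest, and the other 5 were alike. Its log2 fold change of 1.86 (SE 0.90, 95% interval -0.22 to 3.94, edgeR p = 0.0728) did not pass the thresholds, and the exact two-sided permutation p was 0.6. Without MSCsTXL-exo library 12 it was -0.023. Without MSCsTXL-exo library 10 it was 2.29 and without MSCsTXL-exo library 13 it was 2.24, both past the thresholds, as were DESeq2 (1.83) and other settings that keep library 12, namely upper quartile factors (1.80) and no filter on low counts without the block (1.82) or with it (1.10). Other settings that keep library 12 gave no call, and some gave smaller values, at 1.03 with limma-voom, 1.12 with the replicate block, and, with the block, 1.03 with DESeq2, 1.46 with limma-voom and 1.03 with library totals only.

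The Mir138-2 hairpin is shown with its arms in capitals because the arm named 3p outnumbered the arm with the known role (RefSeq GRCr8, chr19:10680133-10680214, minus strand).
Mir138-2: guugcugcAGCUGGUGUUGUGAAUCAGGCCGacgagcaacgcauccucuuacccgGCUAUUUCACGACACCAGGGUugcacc
miR-138-2-3p had more UMIs than miR-138-5p in all 6 libraries, although miR-138-5p can also come from a second locus. The 5p arm held 33.3%, 3.0% and 38.7% of both arms' UMIs in MSCsTXL-exo libraries 10, 12 and 13, against 15%, 19.0% and 23.3% in MSCs-exo libraries 10, 12 and 13. The means were 25.0 ± 19.3% in MSCsTXL-exo and 19.1 ± 4.17% in MSCs-exo (SD, n = 3 each, exact two-sided permutation p = 0.7).

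miR-375 is a miRNA of pancreatic islet cells, where its 3p arm, the guide, is known to limit insulin secretion. miR-375-3p was at 27.4, 21.0 and 9.71 CPM (11, 17 and 15 UMIs) in MSCsTXL-exo libraries 10, 12 and 13, against 44.4, 16.9 and 16.2 CPM (23, 12 and 15 UMIs) in MSCs-exo libraries 10, 12 and 13. The groups overlapped, with MSCs-exo library 10 highest. The means were 19.4 ± 8.97 CPM in MSCsTXL-exo and 25.8 ± 16.1 CPM in MSCs-exo (SD, n = 3 each, exact two-sided permutation p = 0.7). On the log2 scale the fold change was -0.45 (SE 0.60, 95% interval -1.83 to 0.94), and 0.13 without MSCs-exo library 10.

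miR-375-5p, the passenger arm, was at 9.97, 158.5 and 11.0 CPM (4 UMIs in library 10 and 17 in library 13) in MSCsTXL-exo libraries 10, 12 and 13, against 23.1, 8.43 and 6.48 CPM (12, 6 and 6 UMIs) in MSCs-exo libraries 10, 12 and 13. MSCsTXL-exo library 12 was again the exception, at 6.85 times the next highest library. miR-375-5p was below the filter on low counts, and in the setting with no filter its log2 fold change was 2.27 (edgeR p = 0.0356, adjusted p = 0.995, and on the CPM of the 6 libraries an exact two-sided permutation p = 0.5). It was called in that setting, with the block as well (1.49), and when it passed the filter without MSCsTXL-exo library 13 (2.73), and not without MSCsTXL-exo library 10, MSCs-exo library 12 or MSCs-exo library 13 (1.87 to 2.78), all of which keep MSCsTXL-exo library 12. The ratio of the group means without library 12 was 0.827.

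The Mir375 hairpin is shown with its arms in capitals because its 5p arm, not its guide, held most of the UMIs in MSCsTXL-exo library 12 (RefSeq GRCr8, chr9:83906582-83906656, minus strand).
Mir375: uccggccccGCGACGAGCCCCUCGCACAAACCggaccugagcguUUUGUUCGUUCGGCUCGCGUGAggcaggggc
The 5p arm held 26.7%, 88.3% and 53.1% of both arms' UMIs in MSCsTXL-exo libraries 10, 12 and 13, against 34.3%, 33.3% and 28.6% in MSCs-exo libraries 10, 12 and 13. In MSCsTXL-exo library 12 the Clopper-Pearson 95% interval was 81.9% to 93.0%, above that of every other library, while in library 13 of that group, at 34.7% to 70.9%, it overlapped the MSCs-exo libraries. The means were 56.0 ± 30.9% in MSCsTXL-exo and 32.1 ± 3.06% in MSCs-exo (SD, n = 3 each, exact two-sided permutation p = 0.4).

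miR-7a-5p, the islet and pituitary miRNA that binds the circular RNA Cdr1as, was the second most abundant member. It was at 449, 603 and 912 CPM in MSCsTXL-exo libraries 10, 12 and 13, against 986, 1392 and 822 CPM in MSCs-exo libraries 10, 12 and 13. MSCsTXL-exo libraries 10 and 12 were below all of MSCs-exo, and MSCsTXL-exo library 13 was above MSCs-exo library 13. The means were 654 ± 236 CPM in MSCsTXL-exo and 1067 ± 293 CPM in MSCs-exo (SD, n = 3 each). Its log2 fold change of -0.70 (SE 0.37, 95% interval -1.57 to 0.16, edgeR p = 0.0981, exact two-sided permutation p = 0.2) did not pass the thresholds. Without MSCsTXL-exo library 13 it was -1.08, which did. It was -0.48 without MSCsTXL-exo library 10 and -0.46 without MSCs-exo library 12, neither of them called. Within library numbers the ratio of MSCsTXL-exo to MSCs-exo was 0.455 for number 10, 0.433 for number 12 and 1.11 for number 13.

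miR-7b, which shares the seed of miR-7a-5p, was at 12.5, 7.43 and 11.7 CPM (5, 6 and 18 UMIs) in MSCsTXL-exo libraries 10, 12 and 13, against 17.4, 16.9 and 15.1 CPM (9, 12 and 14 UMIs) in MSCs-exo libraries 10, 12 and 13. The groups did not overlap (exact two-sided permutation p = 0.1, the smallest possible). In either direction, groups apart were found for 29 of the 392 tested miRNAs (7.4%), miR-7b among them. The log2 fold change of -0.65 passed neither the fold threshold nor the threshold on the unadjusted p of edgeR's test. miR-7b was named for its seed and because a read with 1 mismatch could fall to either miRNA.

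The profile closest to that of miR-7a-5p over the 6 libraries was that of miR-142-3p, a miRNA of blood cells, at a mean absolute difference of 0.10 on the log2 scale after centring, and next that of miR-451-5p, an erythroid miRNA, at 0.17. The median over all miRNAs compared was 0.61. The closest profiles were picked as the smallest differences, so they fall below this median by construction. For miR-128-3p the closest was at 0.09, against a median of 0.44. miR-142-3p was at 87.3, 131 and 177 CPM in MSCsTXL-exo libraries 10, 12 and 13, against 228, 269 and 179 CPM in MSCs-exo libraries 10, 12 and 13. A list of 7 blood and erythroid miRNAs, of which 6 were in the table, from miR-142-3p, the highest, to miR-144-3p, the lowest at 2.68 CPM, summed to 214, 255 and 332 CPM in MSCsTXL-exo libraries 10, 12 and 13, against 403, 450 and 335 CPM in MSCs-exo libraries 10, 12 and 13. None of the 6 was at 0 in all libraries, 4 were tested and 0 were called by edgeR. The sum does not stand for each miRNA of the list. Among the 4 tested, log2 fold changes were -0.76 for miR-142-3p and -0.40 for miR-451-5p, but 0.20 for miR-150-5p. The remaining value is not given here. miR-150-5p was at 72.3, 58.2 and 59.6 CPM in MSCsTXL-exo libraries 10, 12 and 13, against 52.1, 61.9 and 50.8 CPM in MSCs-exo libraries 10, 12 and 13. The part of blood cell RNA in the level of miR-7a-5p was not tested.

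**Figure D4:**
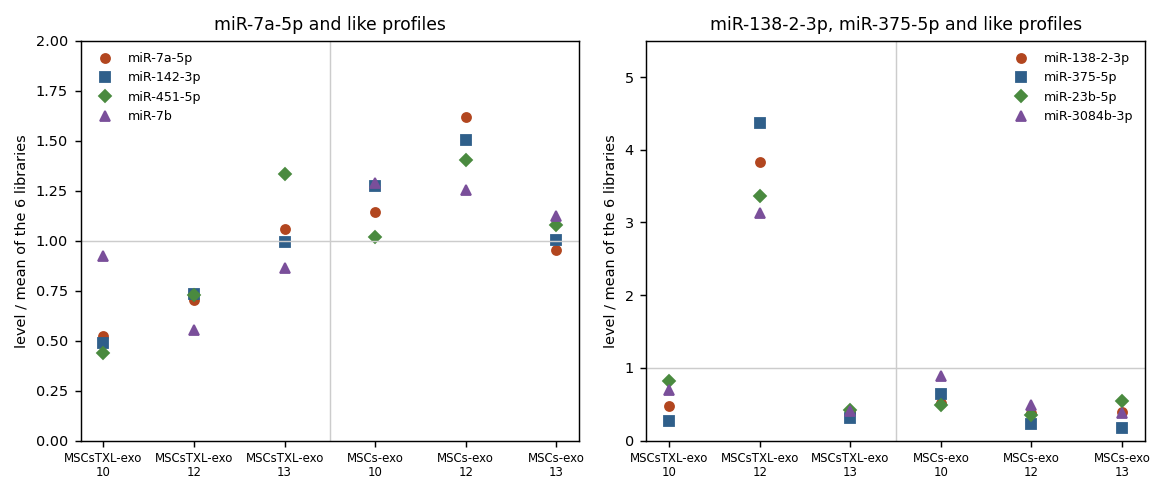
Level in each library divided by the mean over the 6 libraries, with MSCsTXL-exo libraries 10, 12 and 13 left of the line and MSCs-exo libraries right. The left panel shows miR-7a-5p with its closest profiles (miR-142-3p and miR-451-5p) and miR-7b, and the right panel shows miR-138-2-3p with its closest profiles (miR-23b-5p and miR-3084b-3p) and miR-375-5p. On the left MSCsTXL-exo libraries 10 and 12 are low for miR-7a-5p, and on the right MSCsTXL-exo library 12 alone is high for all 4 miRNAs.

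miR-9 gives both arms from 3 hairpins, and in neural cells the arms are known to repress partners of one complex, REST by miR-9-5p and CoREST by miR-9-3p. miR-9a-5p was at 14.96, 40.9 and 12.95 CPM (6, 33 and 20 UMIs) in MSCsTXL-exo libraries 10, 12 and 13, against 34.7, 16.9 and 16.2 CPM (18, 12 and 15 UMIs) in MSCs-exo libraries 10, 12 and 13. One library of each group, MSCsTXL-exo 12 and MSCs-exo 10, stood above the rest. The means were 22.9 ± 15.6 CPM in MSCsTXL-exo and 22.6 ± 10.5 CPM in MSCs-exo (SD, n = 3 each, exact two-sided permutation p = 1.0). Its log2 fold change was 0.05 (SE 0.59), with a 95% interval of -1.31 to 1.42 that spans a 2-fold change in both directions, and its sign turned without MSCsTXL-exo library 12 (-0.70).

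miR-9a-3p had 0, 2 and 6 UMIs in MSCsTXL-exo libraries 10, 12 and 13, against 0, 2 and 1 UMIs in MSCs-exo libraries 10, 12 and 13, 11 in all. A count of 0 allows up to 7.48 CPM in MSCsTXL-exo library 10 and 5.79 CPM in MSCs-exo library 10, so no difference was detectable at this depth. Among libraries with at least 10 UMIs over both arms, the 5p arm held 94.3% and 76.9% in MSCsTXL-exo libraries 12 and 13, against 100%, 85.7% and 93.8% in MSCs-exo libraries 10, 12 and 13. The shares overlapped (exact two-sided permutation p = 0.5).

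miR-124-3p, which in neurons represses transcripts of non-neuronal genes such as Ptbp1, was at 2.49, 28.5 and 8.42 CPM (1, 23 and 13 UMIs) in MSCsTXL-exo libraries 10, 12 and 13, against 36.7, 8.43 and 12.96 CPM (19, 6 and 12 UMIs) in MSCs-exo libraries 10, 12 and 13. The lowest and the highest value of the 6 were in MSCsTXL-exo library 10 and MSCs-exo library 10, and the groups overlapped. The means were 13.1 ± 13.6 CPM in MSCsTXL-exo and 19.3 ± 15.2 CPM in MSCs-exo (SD, n = 3 each, exact two-sided permutation p = 0.5). Its log2 fold change in the setting with no filter was -0.45. As for miR-9a-5p, the 2 libraries with the most were MSCsTXL-exo 12 and MSCs-exo 10.

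For the other tested members, the closest profiles over the 6 libraries were those of miR-23a-3p and miR-23b-3p for miR-128-3p (mean absolute difference 0.09 for each, on the log2 scale after centring), of let-7c-1-3p (0.37) and miR-148a-5p (0.38) for miR-128-2-5p, and of miR-23b-5p (0.28) and miR-3084b-3p (0.30) for miR-138-2-3p. They were those of miR-487b-5p (0.13) and miR-483-5p (0.21) for miR-9a-5p, and of miR-34b-3p (0.16) and miR-1249 (0.17) for miR-375-3p. miR-23b-5p, near miR-138-2-3p, was at 22.4, 92.9 and 11.7 CPM in MSCsTXL-exo libraries 10, 12 and 13, against 13.5, 9.84 and 15.1 CPM in MSCs-exo libraries 10, 12 and 13, so MSCsTXL-exo library 12 was high there as well. These likenesses are descriptions over the same 6 libraries, so that the miRNAs compared share the depth and composition of each library.

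Other miRNAs of neurons, glia and neuroendocrine cells lay on both sides of 0. Of a list of 31, 30 were in the table, 12 had under 10 UMIs in every library and 15 were tested. Log2 fold changes were positive for 10 and negative for 5, with a median of 0.17, against 0.03 over all tested miRNAs. By edgeR 0 were called, and 0 had an unadjusted p under 0.05, while DESeq2 called 1 and limma-voom 0. In the replicate block fit, which called 7.4% of all tested miRNAs, 1 of 15 was called, a share near that background. It was miR-346, a brain miRNA, which was lower in MSCsTXL-exo, with a log2 fold change of -1.09, against -1.20 and no call without the block. miR-346 was at 44.9, 34.7 and 20.1 CPM in MSCsTXL-exo libraries 10, 12 and 13, against 111.9, 78.7 and 34.6 CPM in MSCs-exo libraries 10, 12 and 13. The groups overlapped, and within each number the MSCsTXL-exo library was lower.

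The most abundant of this list were miR-218a-5p, which is enriched in motor neurons, and both arms of miR-132, which neuronal activity induces through CREB. miR-218a-5p was at 648, 592 and 1947 CPM in MSCsTXL-exo libraries 10, 12 and 13, against 750, 925 and 1140 CPM in MSCs-exo libraries 10, 12 and 13 (log2 fold change 0.18). miR-132-5p was at 102.2, 141 and 51.1 CPM in MSCsTXL-exo libraries 10, 12 and 13, against 318, 157 and 46.5 CPM in MSCs-exo libraries 10, 12 and 13 (log2 fold change -0.82). miR-132-3p was at 84.8, 145 and 140 CPM in MSCsTXL-exo libraries 10, 12 and 13, against 82.9, 153 and 84.3 CPM in MSCs-exo libraries 10, 12 and 13 (log2 fold change 0.21). For all 3 the groups overlapped. The neuronal marker list, 6 miRNAs that include miR-9a, miR-124-3p and miR-138-5p, was led by miR-129-5p at a mean of 101 CPM, and miR-9a-3p was the lowest at 1.71 CPM.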

How the data were processed

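The authors made small RNA libraries from exosomal RNA with the QIAseq miRNA Library Kit, and cutadapt 2.7 and Bowtie 1.2.2 are the tools in the submitters' processing notes. The aligner's mismatch settings and the genome build are not given in the sources used here. The authors deposited UMI counts per mature miRNA, not normalized, in 833 lines for 749 miRNAs; the 69 multi-locus miRNAs, listed once per locus with the same counts, were used once each. The deposited table's positions (start and end) were used only to count loci. It also has 6 columns of the authors' CPM, left aside here. Columns with T were taken as MSCsTXL-exo and those with M as MSCs-exo; nothing links their numbers (10, 12 and 13) to single sample titles.

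Counts were tested by the quasi-likelihood test of edgeR 4.0.16 (R 4.3.3), unblocked, after TMM scaling (factors of 0.862 to 1.14) and filtering by filterByExpr on the groups (minimum count 10, minimum total 15), which left 392 miRNAs. Adjusted p-values (Benjamini-Hochberg) run over all 392. Standard errors were taken from the fold change and its F statistic. The coefficient of variation between libraries that edgeR fits beyond counting error was 0.481 unblocked and 0.312 blocked. Libraries of the same number deviated together (correlations of deviations from group means over 392 miRNAs of 0.430 for number 10, 0.166 for 12 and 0.692 for 13). The closest MSCs-exo library to MSCsTXL-exo library 12 was, however, number 10 (0.344). The number entered only the replicate block fits and the ratios within library numbers. The main edgeR test, with its p-values and intervals, and the permutation tests did not use it. In each group a higher number also means a larger total, so number and depth cannot be told apart. Alternatives were DESeq2 1.42.0, limma-voom (limma 3.58.1), other scalings and filters, the replicate block, and each library left out in turn; the block combined with another tool, filter or scaling was added after the data were seen. Single values and arm shares were compared with exact permutation tests (scipy 1.17.1). Arm shares used libraries with at least 10 UMIs over both arms. The fits were also run on simulated counts with a common spread for all miRNAs and no effect of library number. That run does not cover libraries that stand apart, and no outcome of it is used here.

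The members and lists were chosen with earlier results of these data known. Named were all members; of the other neural list those called and the 3 highest by mean CPM; the 2 closest profiles of each tested member (mean absolute difference of centred log2 CPM, prior count 2); and the highest and lowest of each marker list. miR-7b and miR-128-1-5p, named for their seeds, and the values of miR-23b-5p, miR-142-3p and miR-150-5p were chosen after the values were seen. Sequences are those of RefSeq (GRCr8).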

Additional observations from a re-analysis of the deposited data

How the results depend on the processing

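miR-128-2-5p was lower in MSCsTXL-exo in all 17 alternatives that gave a value, and no member passed an adjusted p under 0.05 in any of them. The alternatives reuse the same libraries, in which its groups did not overlap, so the shared direction is no separate support. The count of all miRNAs called (14 of 392) became 24 with DESeq2, 9 with limma-voom and 29 with the replicate block, each of 392. With the block it was 28 with DESeq2, 33 with limma-voom and 31 with library totals only, again of 392. The tested set differed with no filter (34 of 749, and 52 of 749 with the block) and with at least 10 counts in every library (6 of 282). Without single libraries the count was 6 to 38 (25 of 429 without MSCsTXL-exo 13, 6 of 420 without MSCs-exo 10, 6 of 449 without MSCs-exo 12 and 38 of 427 without MSCs-exo 13). At an adjusted p under 0.05 the count (0 of 392) became 1 with the replicate block, and with the block 9 with DESeq2, 1 with limma-voom, 12 of 749 with no filter and 1 with library totals only. The count of members called (1 of 6) became 2 of 6 with DESeq2 or upper quartile factors, where 24 and 20 of 392 miRNAs were called. With no filter it was 3 of 10, with or without the block, and with at least 10 counts in every library 0 of 4. Without single libraries it was 0 to 4 (0 of 6 without MSCsTXL-exo 12, against 13 of 410 miRNAs, 4 of 8 without MSCsTXL-exo 13 and 0 of 7 without MSCs-exo 10). The counts of all miRNAs for the other settings are given above. The other neural miRNAs called (0 of 15) became 1 of 15 with DESeq2, 1 of 15 with the replicate block and 2 of 15 with the block and limma-voom. With the block, 1 of 15 was called by DESeq2 or with library totals only, and 1 of 30 with no filter. Without single libraries the count was 0 to 2 (1 of 15 without MSCsTXL-exo 13 and 2 of 15 without MSCs-exo 13). The replicate block alone changed no call of a member.

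The log2 fold change of miR-9a-5p (0.05) was -0.093 with limma-voom, -0.038 with library totals only, and, with the replicate block, -0.051 with DESeq2, -0.025 with no filter and -0.081 with library totals only. That of miR-128-3p (0.03) was -0.039 with library totals only, -0.037 with at least 10 counts in every library and -0.051 with the block and library totals only. Library totals only moved the median of all tested miRNAs to -0.07, against 0.03. Leaving out single libraries gave -0.70 to 0.45 for miR-9a-5p, -0.11 to 0.10 for miR-128-3p, -0.023 to 2.29 for miR-138-2-3p, -1.08 to -0.46 for miR-7a-5p and -0.74 to 0.13 for miR-375-3p. The cause of these changes was not tested. Where an alternative left a group with 2 libraries, the spread was pooled over both groups. At 0 to 194 UMIs per library, depth limits what can be said of the members other than miR-128-3p and miR-7a-5p.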

Other observations

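miR-129-5p, a brain miRNA that was chosen here after its values were seen, was at 272, 101.5 and 47.9 CPM (109, 82 and 74 UMIs) in MSCsTXL-exo libraries 10, 12 and 13, against 94.5, 53.4 and 38.9 CPM (49, 38 and 36 UMIs) in MSCs-exo libraries 10, 12 and 13. Within each number the MSCsTXL-exo library was higher, at 2.88, 1.90 and 1.23 times the MSCs-exo library, although the ranges of the groups overlapped (p = 0.3 by the exact two-sided permutation test). The log2 fold change was 1.16 (SE 0.69, 95% interval -0.44 to 2.77) and, with the replicate block, 0.93 (SE 0.35), and neither was called by edgeR. In both groups library 10 had the highest level and library 13 the lowest, for miR-129-5p and for miR-346 alike.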
